A study of Mus musculus with 2 samples.

Results

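The genes described here encode proteins of neutrophil granules, taken as 10 named genes of 18193 genes with a probe set of their own on the array. They were chosen by name and not by a cutoff on a measured value, though with earlier results of these data known. They are the 4 primary granule genes Mpo, Elane, Prtn3 and Ctsg, and the 6 secondary and tertiary granule genes Camp, Ngp, Ltf, Lcn2, Mmp8 and Mmp9. All 10 had probe sets, 11 in all, since Mmp9 had 2 and every other gene 1. No probe set annotated to several genes matched them. The Lcn2 probe set, 1427747_a_at, has the suffix _a_at, which the array's design gives to sets that match several transcripts of a gene.

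The data were 2 Affymetrix arrays of total RNA from sorted mouse bone marrow KLS cells, 1 from TIF1γ Δ/Δ mice, in which the TIF1γ gene (Trim33) was conditionally inactivated, and 1 from wild type mice. KLS cells lack lineage markers (lin-) and carry c-kit and Sca, a gate that enriches for stem cells and multipotent progenitors. The comparison asked how deletion of TIF1γ affects these cells. The labels name neither the Cre line nor the age, sex or number of mice behind an array, and no treatment. With 1 array per genotype there was no replicate check, and no p-value or SD between samples could be given.

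Neutrophils fill their granules in the order in which they mature. Primary (azurophil) granules, with myeloperoxidase and serine proteases, are made at the promyelocyte stage, and transcripts such as Mpo already appear in granulocyte-monocyte progenitors. Secondary (specific) granules with lactoferrin, cathelicidin and lipocalin are made later, in myelocytes and metamyelocytes, and tertiary (gelatinase) granules later still. In mice the factor C/EBPε is needed for secondary granule genes, while PU.1, Myb, RUNX1 and C/EBPα act on primary granule genes.

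The promoters of 6 members are shown to set the sequence patterns of the 2 classes, which the choice of members did not use, beside their signals. The patterns, like the members, were chosen with earlier results of these data known. The 6 promoters include those of the neighbours Prtn3 and Elane. Each is the 250 bases before the annotated start site, 5′ to 3′, from RefSeq (GRCm38.p6). Capitals mark the C/EBP patterns TTGCNNAA and TTNNGNAAT, which can overlap, and the PU.1 and ETS core GAGGAA, each on both strands.
Ngp (chr9:110419558-110419807, plus strand): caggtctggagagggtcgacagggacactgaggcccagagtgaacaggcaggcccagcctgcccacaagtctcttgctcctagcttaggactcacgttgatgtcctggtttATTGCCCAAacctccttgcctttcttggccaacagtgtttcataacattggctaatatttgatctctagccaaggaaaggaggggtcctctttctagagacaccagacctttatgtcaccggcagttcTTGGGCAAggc
Ltf (chr9:111019042-111019291, plus strand): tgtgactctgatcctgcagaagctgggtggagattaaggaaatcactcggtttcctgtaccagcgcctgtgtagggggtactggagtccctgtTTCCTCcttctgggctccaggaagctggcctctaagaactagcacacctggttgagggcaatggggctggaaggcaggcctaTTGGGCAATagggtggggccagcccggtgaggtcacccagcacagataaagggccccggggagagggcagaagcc
Lcn2 (chr2:32387740-32387989, minus strand): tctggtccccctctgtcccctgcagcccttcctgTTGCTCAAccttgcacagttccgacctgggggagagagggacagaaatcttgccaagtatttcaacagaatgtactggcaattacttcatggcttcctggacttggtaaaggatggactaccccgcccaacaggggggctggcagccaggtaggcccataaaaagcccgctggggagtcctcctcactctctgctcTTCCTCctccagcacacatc
Camp (chr9:109849457-109849706, minus strand): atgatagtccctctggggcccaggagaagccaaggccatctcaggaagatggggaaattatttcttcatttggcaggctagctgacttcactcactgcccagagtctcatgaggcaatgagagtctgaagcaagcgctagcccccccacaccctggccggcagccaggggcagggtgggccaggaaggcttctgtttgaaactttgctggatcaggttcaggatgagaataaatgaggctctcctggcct
Prtn3 (chr10:79879417-79879666, plus strand): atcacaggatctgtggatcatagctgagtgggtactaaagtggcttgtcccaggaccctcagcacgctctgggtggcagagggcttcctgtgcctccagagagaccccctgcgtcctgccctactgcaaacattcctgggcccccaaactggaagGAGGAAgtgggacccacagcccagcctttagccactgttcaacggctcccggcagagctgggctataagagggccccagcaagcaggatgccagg
Elane (chr10:79886062-79886311, plus strand): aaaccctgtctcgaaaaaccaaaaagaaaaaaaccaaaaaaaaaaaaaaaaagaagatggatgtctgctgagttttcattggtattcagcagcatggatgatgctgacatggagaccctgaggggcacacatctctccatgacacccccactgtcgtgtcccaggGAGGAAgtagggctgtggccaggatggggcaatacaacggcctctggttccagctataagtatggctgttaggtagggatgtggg

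In TIF1γ Δ/Δ cells the primary granule genes had between 20.2% and 69.9% of their wild type signal. The 6 secondary and tertiary granule genes had signals from 0.483 to 29.7 there, 4 of them under the floor given below. Values are MAS5 signals in arbitrary units, already scaled by the authors to the same trimmed mean on both arrays. The floor under which a signal counts as not measured was the median signal of each array, 11.7 for TIF1γ Δ/Δ cells and 14.4 for wild type cells. Differences are log2 signals, TIF1γ Δ/Δ minus wild type, centred on the median over probe sets above the floor on both arrays. Because the samples are bulk RNA, fewer cells of a type and less RNA per cell cannot be told apart.

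The targeted gene was lower. Trim33 had 172 in TIF1γ Δ/Δ cells and 379 in wild type cells in 1426954_at (log2 -1.12), and 34.5 in TIF1γ Δ/Δ cells and 61.0 in wild type cells in 1455189_at (log2 -0.80). Its probe set 1459264_at was under the floor on both arrays, and whether any of the 3 lies in the deleted part was not tested. Gapdh control probe sets, which compare the 3' with the 5' end of the transcript, had a ratio of 7.38 in TIF1γ Δ/Δ cells and 7.86 in wild type cells, and those of beta-actin 5.54 in TIF1γ Δ/Δ cells and 5.14 in wild type cells. Of all genes, 11015 were measured in TIF1γ Δ/Δ cells and 11074 in wild type cells.

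Mpo, which encodes myeloperoxidase, the enzyme that makes hypochlorous acid, had a signal of 3840 in TIF1γ Δ/Δ cells and 5497 in wild type cells. This is 69.9% of the wild type signal, a log2 difference of -0.49. Ctsg encodes the serine protease cathepsin G and had 2350 in TIF1γ Δ/Δ cells and 4519 in wild type cells (log2 -0.92). Prtn3, for proteinase 3, had 1710 in TIF1γ Δ/Δ cells and 3206 in wild type cells (log2 -0.88). All 3 were lower in TIF1γ Δ/Δ cells but under 2-fold apart, and their differences spanned 0.43. For scale, the SD between probe sets of 1 gene was 0.45, taken over 4534 genes with several probe sets. It describes probe sets on the same 2 arrays, not spread between genes or replicates. It therefore cannot show whether the 3 genes differ.

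Elane, which encodes neutrophil elastase, stood below the other primary granule genes. Its signal was 123 in TIF1γ Δ/Δ cells and 611 in wild type cells, a log2 difference of -2.29, or 4.88-fold lower. It lies directly beside Prtn3 in the RefSeq gene order, yet its difference was 1.40 (log2) further from 0 than that of Prtn3. Whether this distance exceeds measurement error cannot be told, since each of these genes had a single probe set and each genotype 1 array.

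Camp, the mouse cathelicidin, had 12.7 in TIF1γ Δ/Δ cells and 3951 in wild type cells (log2 -8.26). Ngp, a neutrophil granule protein related to the cathelicidins, had 29.7 in TIF1γ Δ/Δ cells and 5665 in wild type cells (log2 -7.55). These were the only secondary granule genes above the floor in TIF1γ Δ/Δ cells, Camp by a factor of 1.09 and Ngp by a factor of 2.55, so the value of Camp lies close to a bound. Camp was 306-fold and Ngp 188-fold lower in TIF1γ Δ/Δ cells.

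The other 4 were under the floor in TIF1γ Δ/Δ cells, so their folds are bounds set against the floor. Lcn2, lipocalin 2, which binds bacterial siderophores, gave 9.64 in TIF1γ Δ/Δ cells and 2225 in wild type cells, at least 188-fold lower. Ltf, for the iron-binding protein lactoferrin, gave 0.483 in TIF1γ Δ/Δ cells and 747 in wild type cells, at least 63.1-fold lower. MAS5 values this low have no order among themselves, and the ratio of the Ltf signals as deposited is not used as a fold.

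Of the matrix metalloproteinases, Mmp8, the neutrophil collagenase, had 7.49 in TIF1γ Δ/Δ cells and 281 in wild type cells, at least 23.7-fold lower. Mmp9, for gelatinase B of tertiary granules, had 4.56 in TIF1γ Δ/Δ cells and 249 in wild type cells in its probe set 1416298_at, at least 21.0-fold lower. Its probe set 1448291_at gave 2.42 in TIF1γ Δ/Δ cells and 279 in wild type cells, at least 23.6-fold lower. Both probe sets of Mmp9 were thus measured in wild type cells only. A bound can be no larger than the wild type signal over the floor, so the order of these 4 genes follows their wild type signals and is not an order of effect.

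**Figure D1:**
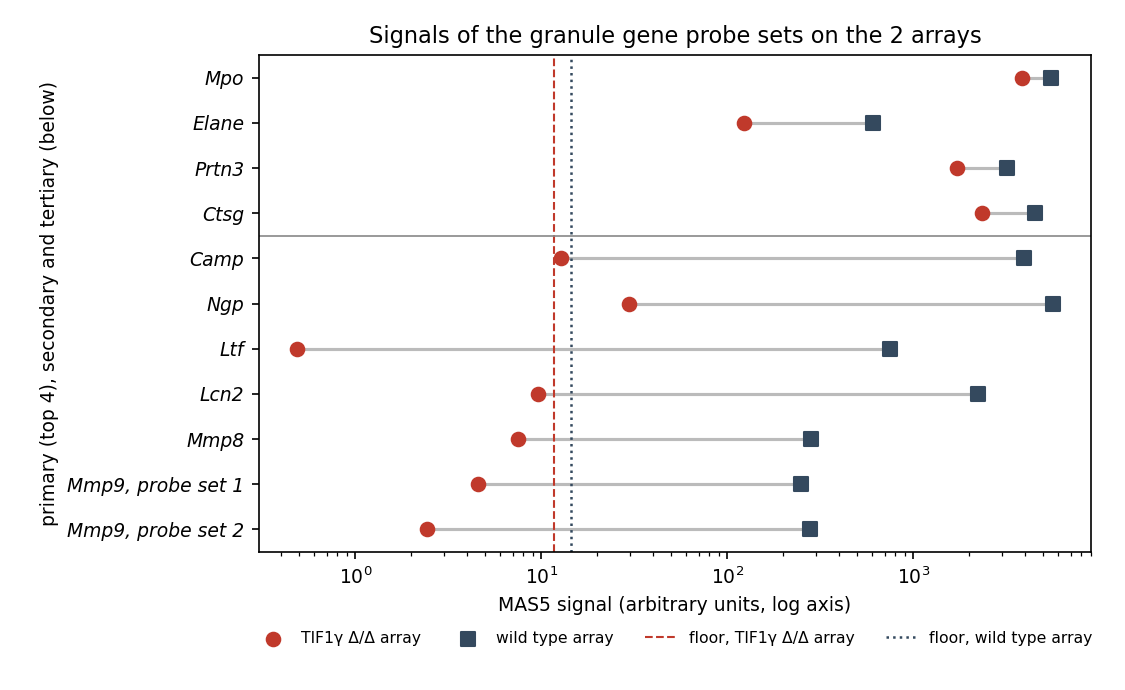
MAS5 signal (log axis) of the 11 granule gene probe sets, with a circle for TIF1γ Δ/Δ cells, a square for wild type cells, and vertical lines for the floors of 11.7 and 14.4. Mmp9 probe set 1 is 1416298_at and probe set 2 is 1448291_at. The 4 primary granule genes lie above both floors on both arrays, while in TIF1γ Δ/Δ cells the secondary and tertiary granule genes lie between 0.483 and 29.7.

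All 10 members had differences below 0, as did 5858 of all 11724 genes measured on at least 1 array. The 6 secondary and tertiary granule genes had a median difference of -6.77, 2 of them measured on both arrays, and the 4 primary granule genes a median of -0.90, all measured on both. The medians lay 5.86 apart, or 58.3-fold, with 4 bounds in the first. The groups did not overlap. The bound nearest to Elane, the lowest primary gene, was that of Mmp9 at -4.39, so with this floor each secondary and tertiary gene lay at least 2.11 below Elane. Which gene is nearest depends on the floor: with no floor it was Mmp8 at -5.11, and with a pseudocount of 16 Mmp8 at -3.63. With a floor at the 65th percentile of each array the classes came closer, with Mmp9 at -3.02 and Elane at -2.35. The values of 79 other genes, bounds included, lay between those of Mmp9 and Elane. The floor did not hold the primary granule genes back: at their wild type signals it would have allowed folds of up to 51.5 for Elane and 464 for Mpo.

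At least 2-fold lower were 6 of 6 secondary and tertiary granule genes and 1 of 4 primary granule genes, Elane, while no member was 2-fold higher. Among all 11724 genes measured on at least 1 array, 6.01% were at least 2-fold lower and 2.53% at least 2-fold higher, with a median difference of 0.00023. At 16-fold, a threshold chosen after the values were seen, 6 of 6 secondary and tertiary granule genes and 0 of 4 primary granule genes passed, against 0.222% of all genes, or 26. Only a bright gene can reach such a bound. Among the 3599 genes with a wild type signal of at least 249, that of Mmp9, 24 were at least 16-fold lower, or 0.667%. At least 2-fold lower were 141 of these bright genes, or 3.92%, a smaller share than over all genes. These shares describe 2 arrays and are not a test between genotypes.

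**Figure D2:**
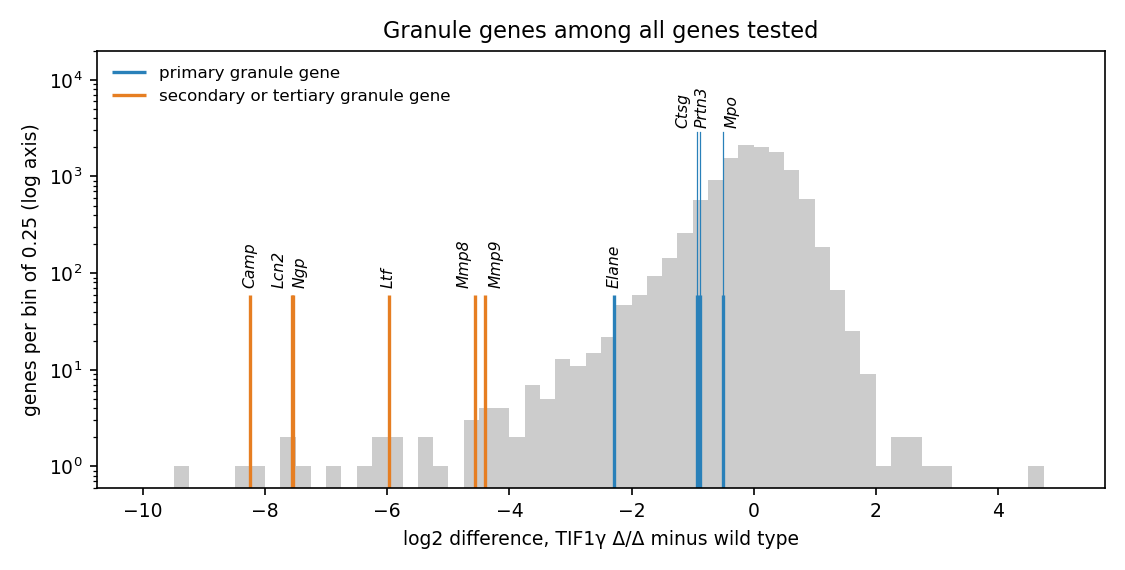
Histogram of the log2 difference, TIF1γ Δ/Δ minus wild type, for the 11724 genes tested (count on a log axis), with a vertical line for each granule gene. The secondary and tertiary granule genes lie from -8.26 to -4.39 in the sparse lower tail, where 4 of them are bounds, and the primary granule genes lie from -2.29 to -0.49.

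The genes most like each class over the 2 arrays were taken by distance between log2 signals and class medians, among genes measured in wild type cells. Signals under the floor were set to it first. The secondary and tertiary median in TIF1γ Δ/Δ cells was the floor itself, 11.7. Genes under the floor there tie on that array, so only their wild type signals set their distance to this class. Nearest to the secondary and tertiary medians were Vcam1 (7.66 in TIF1γ Δ/Δ cells and 1364 in wild type cells, distance 0.081), Lgals3 (distance 0.30), Fpr2 (0.60) and Plbd1 (0.65). Nearest to the primary medians were Anxa1 (1856 in TIF1γ Δ/Δ cells and 3713 in wild type cells, distance 0.12), Malat1 (0.12), Atpif1 (0.20) and Selenop (0.22). With 2 arrays as the points, likeness means only a like pair of signals.

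Other genes of each granule class were counted from lists. Over all genes tested, 6.01% were at least 2-fold lower and 2.53% at least 2-fold higher. Of 20 other contents of specific and gelatinase granules, 14 were measured on at least 1 array, 12 of these at least 2-fold lower and 0 higher, with a median of -1.98. In TIF1γ Δ/Δ cells 7 of these were above the floor, and in wild type cells 14, and a gene measured in wild type cells only cannot lie higher. Chil3, a chitinase-like protein, had 7.30 in TIF1γ Δ/Δ cells and 3177 in wild type cells, at least 268-fold lower. The neutrophil surface glycoprotein gene Cd177 was at least 22.7-fold, Chil1 at least 15.6-fold and Olfm4, for olfactomedin 4, at least 8.29-fold lower. Cybb, the catalytic subunit of the phagocyte NADPH oxidase, had 28.9 in TIF1γ Δ/Δ cells and 391 in wild type cells (log2 -3.74), and Hp, haptoglobin, 40.1 in TIF1γ Δ/Δ cells and 516 in wild type cells (log2 -3.66). Of the 3 Cybb probe sets, both others lay under the floor in TIF1γ Δ/Δ cells, with 1436779_at at least 3.96-fold lower.

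Of 9 other azurophil granule contents, 4 had a probe set of their own and were measured on both arrays, 1 of them at least 2-fold lower and 0 higher, at a median of 0.33. The shares over all genes tested were 6.01% lower and 2.53% higher. The lower gene was Lyz2, for lysozyme, which other granules and macrophages also hold, with 489 in TIF1γ Δ/Δ cells and 2201 in wild type cells (log2 -2.15). The other 3, named after their values were seen, were the lysosomal enzymes Gusb (log2 0.78) and Man2b1 (log2 0.37) and the cystatin Cst7 (log2 0.28). Primary granules share such enzymes with the lysosomes of all cells.

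Genes that process, store or restrain the serine proteases were mostly under 2-fold apart, as were most of all genes. Of 10 measured, 1 was at least 2-fold lower and 0 higher, and the median was -0.087. Over all genes tested the shares were 6.01% lower and 2.53% higher. Slpi, a secreted inhibitor of elastase and cathepsin G, had 115 in TIF1γ Δ/Δ cells and 388 in wild type cells (log2 -1.73). Named after their values were seen, Ctsc, the protease that activates elastase, proteinase 3 and cathepsin G, had 1310 in TIF1γ Δ/Δ cells and 1436 in wild type cells (log2 -0.11). The granule proteoglycan gene Srgn had 4730 in TIF1γ Δ/Δ cells and 5030 in wild type cells (log2 -0.065). Serpinb1a, for an inhibitor of these proteases inside the cell, was at log2 -0.31.

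Transcription factors of granule genes were mostly under 2-fold apart, as were most of all genes. Of 13 measured, 1 was at least 2-fold lower and 1 higher, at a median of 0.17, against 6.01% lower and 2.53% higher over all genes tested. Cebpd, a C/EBP factor of later myeloid stages, had 53.8 in TIF1γ Δ/Δ cells and 195 in wild type cells (log2 -1.83). Its other probe set, 1456605_at, was above the floor only in TIF1γ Δ/Δ cells, at 15.3 against 12.6 in wild type cells. Cebpa, needed to form granulocyte-monocyte progenitors, had 63.1 in TIF1γ Δ/Δ cells and 24.4 in wild type cells (log2 1.39), from 1 probe set. Named after their values were seen, Spi1, which encodes PU.1, was at -0.32, Gfi1 at 0.024, Runx1 at 0.34 and Myb at 0.28. The probe sets of Runx1 and of Myb disagreed in direction. Cebpe had no probe set of its own in the annotation used.

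Relatives of the granule proteases and peroxidases lay lower in part. Lower by 2-fold or more were 2 of 8 measured genes, and 0 were higher, at a median of -0.83. Over all genes tested the shares were 6.01% lower and 2.53% higher. Epx, the eosinophil peroxidase and a close relative of Mpo, had 14.8 in TIF1γ Δ/Δ cells and 42.6 in wild type cells (log2 -1.50). Gzma, a granule protease of T and NK cells, was measured in wild type cells only and was at least 4.26-fold lower.

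Marker lists of other cell types and of the sorted cells were counted beside the granule genes. Each count here and below stands against 6.01% at least 2-fold lower and 2.53% at least 2-fold higher over all genes tested. Among 14 mature neutrophil markers above the floor in either sample, 6 were at least 2-fold lower and 0 higher, at a median of -0.96. Their summed signal, taken here and below over every listed gene with a probe set, was 3912 in TIF1γ Δ/Δ cells and 25223 in wild type cells. Most of the wild type sum came from the calcium-binding protein genes S100a8, with 53.6 in TIF1γ Δ/Δ cells and 9568 in wild type cells, and S100a9, with 9.92 in TIF1γ Δ/Δ cells and 8147 in wild type cells. S100a9 was at least 688-fold lower and S100a8 had a log2 difference of -7.46, while Fpr2 was at least 71.9-fold lower and Wfdc21 was at log2 -5.49. S100a9, Fpr2, Cxcr2 and G0s2 were under the floor in TIF1γ Δ/Δ cells. Csf3r, the receptor of the granulocyte growth factor G-CSF, named after its value was seen, had 168 in TIF1γ Δ/Δ cells and 163 in wild type cells (log2 0.069).

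All 12 macrophage markers were at least 2-fold lower, and their summed signal was 278 in TIF1γ Δ/Δ cells and 4854 in wild type cells. Vcam1 was at least 115-fold, C1qb at least 42.5-fold and C1qa at least 20.8-fold lower, and Mrc1 was at log2 -4.32. In TIF1γ Δ/Δ cells 4 of the 12 were above the floor, and in wild type cells all 12. Those measured in wild type cells only could not lie higher. Of 8 erythroid markers measured, 7 were at least 2-fold lower, with a summed signal of 3054 in TIF1γ Δ/Δ cells and 6481 in wild type cells. Slc4a1, for the red cell anion exchanger band 3, was at log2 -3.91, and Alas2, for the first enzyme of erythroid haem synthesis, was at least 5.79-fold lower. Ermap was at log2 -1.77 and Klf1, an erythroid transcription factor, at -1.71.

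Granulocyte-monocyte progenitor genes, the stage at which primary granule transcripts are known to begin, lay lower in part. Lower by 2-fold or more were 9 of 14 measured genes, and 0 were higher, at a median of -1.51, with Ly86 at log2 -3.43, Csf1r, the receptor of macrophage colony-stimulating factor, at -2.88, Igsf6 at least 9.17-fold and Fcnb at least 7.21-fold lower. Their summed signal was 7058 in TIF1γ Δ/Δ cells and 9242 in wild type cells. Above 0 were 3 of the 14, named after their values were seen: Cd93 at log2 0.68, Calr at 0.28 and Csf2rb at 0.16. Ms4a3, a gene of granulocyte-monocyte progenitors named after its value was seen, had 315 in TIF1γ Δ/Δ cells and 1202 in wild type cells (log2 -1.91). Of 9 eosinophil, basophil and mast cell markers 2 were at least 2-fold lower, Prg2 (log2 -2.31) and Prg3 (at least 2.75-fold). The median of this list was -0.56, with 6 of the 9 below 0. Cpa3 (log2 0.57), Cma1 (log2 0.35) and Fcer1a (log2 0.29), named after their values were seen, lay above 0, each by under 2-fold. The summed signal of the list was 1731 in TIF1γ Δ/Δ cells and 2219 in wild type cells.

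Genes of the sorted cells themselves were measured on both arrays. Of 10 KLS genes, 1, Gata2 (log2 1.40), was at least 2-fold higher and 0 lower, at a median of 0.31. The other probe set of Gata2, 1428816_a_at, was at log2 0.16, with 193 in TIF1γ Δ/Δ cells and 175 in wild type cells. The counts thus depend on the probe set used. Meis1, counted at log2 0.20, had 1443260_at at -1.50 and 1459423_at at -0.96. Kit, counted at log2 0.39, had 1415900_a_at at 1.14. The summed signal of the list was 8372 in TIF1γ Δ/Δ cells and 6281 in wild type cells. Ly6a, which encodes Sca, had no probe set of its own in the annotation used. B cell markers had 2 of 4 measured genes at least 2-fold lower, Ms4a1 (at least 10.7-fold) and Vpreb1 (log2 -2.62), with sums of 202 in TIF1γ Δ/Δ cells and 634 in wild type cells. T cell markers had 2 of 5, Cd3d (at least 2.38-fold) and Cd2 (at least 2.27-fold), with sums of 122 in TIF1γ Δ/Δ cells and 196 in wild type cells. The wild type signals of Cd3d and Cd2 were only 28.2 and 26.9. Thy1, with 98.6 in TIF1γ Δ/Δ cells and 101 in wild type cells, made up most of the T cell sums. In TIF1γ Δ/Δ cells 2 of the 4 B cell genes and 1 of the 5 T cell genes were above the floor. In wild type cells all were, so those measured there only could not lie higher. The part of any of these cells in the granule gene differences was not tested.

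**Figure D3:**
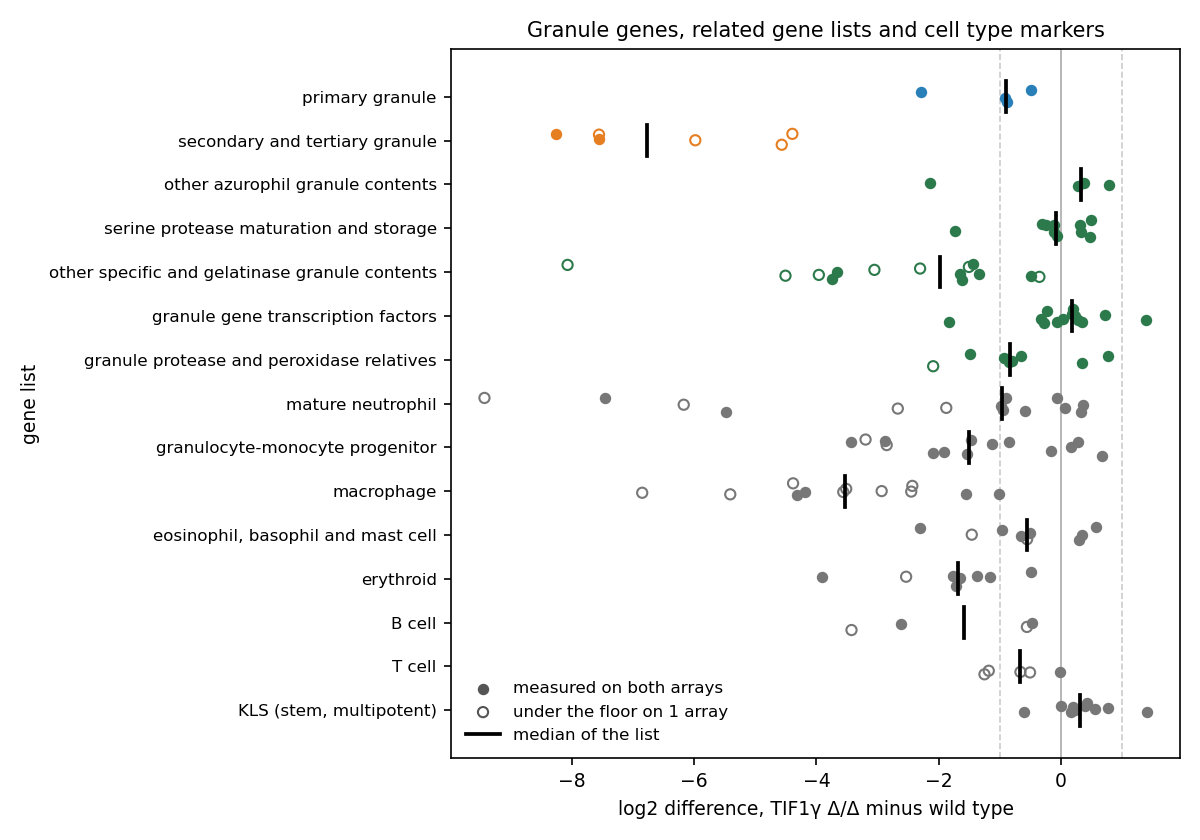
Log2 difference, TIF1γ Δ/Δ minus wild type, of every measured gene in the 2 granule classes, the 5 related lists and the 8 marker lists. Open circles are genes under the floor on 1 array, bars are list medians and dashed lines mark 2-fold. The secondary and tertiary granule median lies at -6.77 and that of macrophage markers at -3.54, whereas the primary granule median lies at -0.90 and that of KLS genes at 0.31.

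The genes next to the granule genes were mostly under 2-fold apart, as were most of all genes. Taking the 3 nearest measured genes on each side of every member gave 54 neighbours, of which 4 were at least 2-fold lower and 2 at least 2-fold higher, at a median of -0.0021. Over all genes tested, 6.01% were at least 2-fold lower and 2.53% at least 2-fold higher. Nme6 and Cdc25a, the nearest measured genes on either side of Camp, were at log2 -0.21 and 0.35. The nearest measured genes to Ngp were Ptpn23, which was under the floor in wild type cells, and Klhl18 (log2 -0.046), and those to Ltf were Als2cl (log2 -0.77) and Ccrl2 (log2 0.039).

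Camp, Ngp and Ltf lie on the same chromosome in that order, in the RefSeq gene order of GRCm38.p6. Of the 7 measured genes between Camp and Ngp, 0 were at least 2-fold lower and 1, Scap, was higher, and of the 8 between Ngp and Ltf 0 were 2-fold apart. The 4 lower neighbours were Epx near Mpo, Rnf17 (log2 -2.20) near Ctsg, 1110008P14Rik (log2 -1.18) beside Lcn2 and Cd40 (at least 3.30-fold) near Mmp9. Other annotated genes can lie between a member and its measured neighbour, 18 of them between Ctsg and Rnf17. Rnf17, at 11.9 in TIF1γ Δ/Δ cells, was just above the floor of 11.7, so its value lies close to a bound. The 2 higher were Scap (log2 1.16) near Ngp and Pcif1 (log2 1.04) near Mmp9. The nearest measured genes to the pair Prtn3 and Elane were Plppr3 (log2 0.82) and Med16 (log2 0.029). Those to Ctsg were Mcpt8 (log2 -0.66) and Gzmb (log2 0.76), both genes of granule serine proteases.

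**Figure D4:**
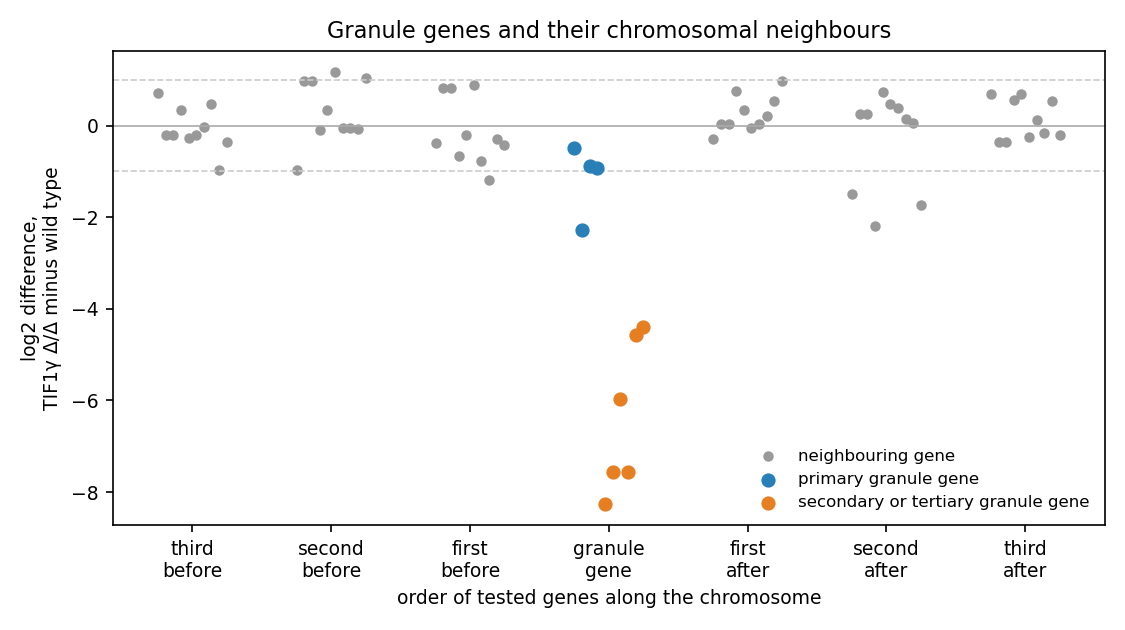
Log2 difference, TIF1γ Δ/Δ minus wild type, of the granule genes (centre) and of the 3 nearest measured genes on each side (grey), with dashed lines at 2-fold. Prtn3 and Elane share their neighbours, which are drawn for both. Of the 54 neighbours, 4 lie at least 2-fold lower, down to -2.20, against 6.01% of all genes tested. The lowest, Rnf17, was just above the floor in TIF1γ Δ/Δ cells.

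In the promoters, searched over 250 bases before to 50 after the start site, the C/EBP pattern TTGCNNAA was found in 4 of 5 secondary and tertiary promoters, those of Ngp, Ltf, Lcn2 and Mmp8. It was found in 0 of 4 primary promoters and in 10.8% of all 32851 promoters of the table. TTNNGNAAT was found in Ngp and Ltf, where it overlaps the first pattern, in 0 of 4 primary promoters and in 11.5% of all. Only these letter patterns were searched, so a promoter without a match can still hold a C/EBP site of other letters. The match of Ngp begins 138 bases before its start site with a further one at 11 bases, and those of Ltf and Lcn2 begin at 75 and 216. Camp, which had the lowest difference of the 6 members measured on both arrays, held neither pattern in this window. Promoters were matched for 9 of the 10 members, all but Mmp9.

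The core GAGGAA was found in 4 of 4 primary promoters and 3 of 5 secondary and tertiary ones, against 28.3% of all promoters. In Prtn3 and Elane, shown above, it begins 95 and 85 bases before the start site. The Myb patterns AACNGNC or CAACNG were in 4 of 4 primary and 3 of 5 secondary and tertiary promoters and in 51.1% of all. In both Prtn3 and Elane the match CAACGG follows, 56 and 51 bases before the start. The GATA core AGATAA was in 0 of 4 primary and 1 of 5 secondary and tertiary promoters (11.2% of all), and the RUNX core TGTGGT in 1 of 4 primary and 1 of 5 secondary and tertiary ones (16.8% of all). A match describes letters in a window and is neither a bound site nor a cause of a difference.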

How the data were processed

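The 2 samples, 1 TIF1γ Δ/Δ and 1 wild type, were grouped by their genotype labels. The deposited values are probe set intensities on a linear scale from MAS5, per the submitters' processing notes; no version or filter is named there. Per the labels' protocols, biotin-labelled cRNA was made with an Affymetrix 2-cycle assay. That amplification and the single array per genotype limit the precision.

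Of 45101 probe sets, 64 controls were left out, and 34945 of the others had a single gene, 932 several and 9160 none in the platform annotation. Symbols were updated by Entrez identifier to RefSeq (GRCm38.p6), which held 34741 of those with a single gene. For each gene the probe set with the highest mean of both log2 signals was used. This mean was taken before the floor was applied, so signals under it could decide the choice, as for Mmp9 and C1qb. The C1qb probe set 1437726_x_at, brighter in wild type cells but not used, was at least 77.0-fold lower. A signal under the array median was set to that floor, giving a bound. The centring shift was -0.024. Genes were counted by size (2-fold), with no test.

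The members and the 13 other lists, of 169 genes, were chosen with earlier results of these data known, as were the motifs. Mcpt8, Cma1 and Prss34 stand in 2 lists. Named are all members, Trim33, up to 6 genes of each related list and 4 of each marker list furthest apart at 2-fold or more, the neighbours nearest or 2-fold apart, and the 4 genes most like each class. The calculation was checked on a simulated array, made from the wild type array with set folds and no noise. That check cannot show how often real arrays give false 2-fold differences. Planned protein comparisons were not run. Alternatives varied scaling, floor, probe set rule, pseudocount and threshold. Python 3.11.15, numpy 2.4.6, pandas 2.3.3, statsmodels 0.14.6 and matplotlib 3.10.9 were used.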

Additional observations from a re-analysis of the deposited data

How the results depend on the processing

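All 10 members were lower in TIF1γ Δ/Δ cells, and the 2 granule classes did not overlap, under each of the 9 alternatives to scaling, floor, probe set rule and pseudocount. In the main setting 5858 of all 11724 genes tested also lay below 0. Leaving out probe sets whose ID ends in a letter suffix such as _a_at left Lcn2 with none, so 9 members remained. The classes came nearest under a 65th percentile floor, where the lowest primary gene was at -2.35 and the highest secondary or tertiary gene at -3.02. With a pseudocount of 16 these were -2.14 and -3.63. The primary median ranged from -0.96 to -0.81. The secondary and tertiary median was -5.40 under a 65th percentile floor, -7.60 with no floor, -5.98 without suffixed probe sets and -5.96 with a pseudocount of 16, and the gap between the medians was -4.44, -6.79, -5.08 and -5.07 under the same settings. Of the 6 values, 4 are bounds that move with the floor by construction, the setting without suffixed probe sets has 1 gene fewer, and a pseudocount shrinks differences of low signals. Single secondary and tertiary genes ranged from -10.5 (Ltf, no floor) to -3.02 (Mmp9, 65th percentile floor). Primary granule genes lower were 3 at 1.5-fold and 0 at 16-fold, a threshold chosen after seeing the data. Over all genes, 412 were 2-fold lower and 170 higher under a 65th percentile floor, 2784 and 2025 with no floor, 418 and 176 with the pseudocount, and 176 were higher with the mean of all measured probe sets. Lower and higher genes numbered 1791 and 1579 at 1.5-fold, 266 and 26 at 3-fold, and 26 and 1 at 16-fold. Signal over background limits the secondary and tertiary values. In TIF1γ Δ/Δ cells, with the main floor, 4 of the 6 lay under it. Camp lay at 1.09 times and Ngp at 2.55 times that floor. No paired analysis was possible because each genotype had 1 array.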
